A study of Mus musculus with 21 samples.

Results

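The insulin-like growth factor (IGF) system was described here through 10 genes: the ligands Igf1 and Igf2, the receptors Igf1r and Igf2r, and the binding proteins Igfbp2 to Igfbp7. They were named as a gene family, with earlier results of these data known, though no measured value enters the rule. Every probe set annotated to 1 of them alone was taken, 28 of the 45037 probe sets other than controls. All 10 genes passed the filter on low values and were among the 13279 genes tested. A further probe set, annotated to both Igf2r and Airn, was left out because its signal cannot be assigned to either gene.

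The arrays came from 21 mouse heart samples. Wild-type mice had a sham operation (n = 4) or transverse aortic constriction, TAC (n = 6), and so did G4D mice (n = 5 and n = 6). TAC ties a ligature around the aorta and loads the left ventricle with pressure, while sham animals had the same surgery with the aorta left alone. G4D mice were gene-targeted to express less Gata4, which encodes a GATA-binding regulator of cardiac genes, and are known from the study as heterozygous for a targeted deletion in Gata4. The series asked how these hearts differ at baseline and under pressure overload. Age, sex and time after the operation are not given in the sources used here, and nothing beyond the titles says that samples of a group are separate animals, so p-values measure the spread between these samples.

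IGF1 and IGF2 are small secreted peptides related to insulin. Both act through the IGF1 receptor, a tyrosine kinase that signals to growth and survival through PI3 kinase and Akt. In the adult, circulating IGF1 is made largely in the liver under growth hormone, while tissues such as the heart also make it locally, in fibroblasts and macrophages among other cells. IGF2 is above all a fetal growth factor, and IGF2R, the cation-independent mannose 6-phosphate receptor, clears it. Binding proteins IGFBP1 to IGFBP6 hold IGFs with high affinity and set how much ligand reaches the receptor. IGFBP7 binds IGFs weakly and is a secreted protein of vessels and stroma.

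The DNA before the transcription start is shown for the 3 members that were higher in G4D than in wild-type hearts after TAC, since the genotype alters a GATA factor. The sequences are the 250 bases before the RefSeq start in GRCm38.p6, given 5′ to 3′ on the gene's strand. The Igf1 window is chr10:87860861-87861110 on the plus strand, that of Igfbp6 is chr15:102143936-102144185 on the plus strand, and that of Igfbp7 is chr5:77408046-77408295 on the minus strand. Capitals mark matches to the GATA words AGATAA or AGATAG or TGATAA or TGATAG on either strand.
Igf1: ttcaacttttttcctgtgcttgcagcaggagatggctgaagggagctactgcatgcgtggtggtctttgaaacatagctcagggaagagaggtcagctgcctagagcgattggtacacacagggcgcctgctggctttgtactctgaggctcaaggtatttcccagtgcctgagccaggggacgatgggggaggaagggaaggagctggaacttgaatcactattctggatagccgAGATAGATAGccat
Igfbp6: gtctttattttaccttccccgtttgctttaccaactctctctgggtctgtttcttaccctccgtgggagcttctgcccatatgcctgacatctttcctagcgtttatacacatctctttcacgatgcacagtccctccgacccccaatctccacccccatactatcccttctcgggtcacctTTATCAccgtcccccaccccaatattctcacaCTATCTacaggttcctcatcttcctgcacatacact
Igfbp7: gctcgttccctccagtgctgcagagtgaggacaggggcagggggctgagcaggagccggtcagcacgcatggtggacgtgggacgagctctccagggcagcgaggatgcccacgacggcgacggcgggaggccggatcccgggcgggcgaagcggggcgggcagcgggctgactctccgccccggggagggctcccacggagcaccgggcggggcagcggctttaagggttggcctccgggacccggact
A GATA word stood in 2 of the 14 RefSeq windows of the 10 members, that of Igf1 with 2 overlapping matches and that of Igfbp6 with 2 separate ones. Of all 32851 windows of this length 26.5% held at least 1. The Igfbp7 window held no such word and had a GC content of 74%, with 26 CpG dinucleotides and 4 matches to the GC box GGGCGG or its reverse complement. The windows of Igf1 and Igfbp6 had GC contents of 52.8% and 49.6%, beside a median of 52.4% over all windows, and 5 and 7 CpG dinucleotides. A match describes the letters only.

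Values are log2 probe-set levels after quantile normalization between arrays. Each gene was tested on its brightest probe set, and a gene is called when its limma p, adjusted by Benjamini-Hochberg over all tested genes, was under 0.05. A value after ± is the standard error of the change. Levels of different genes come from different probes and are not compared with each other. The deposited array medians ran from 4.31 to 5.33, and each array correlated with its group's other arrays, averaged, at 0.969 or more. For Gata4 itself G4D minus wild type was -0.25 ± 0.12 among sham hearts (adjusted p = 0.611) and 0.17 ± 0.10 among TAC hearts (adjusted p = 0.556). Neither was called, so the labels are not checked by it, and where its probes lie relative to the targeted part is not known here. Sample 5 of G4D sham stood apart, with a mean level of the atrial markers of 10.44 beside 6.32 to 7.90 in the other arrays. The normalization weighs on the direction of calls. With the values as deposited the median of all genes shifted by -0.10 for the wild-type TAC change, 0.31 for the G4D TAC change, 0.14 for G4D over wild type after TAC, -0.28 for the same in sham and 0.42 for the interaction. Higher genes then made up 94.7%, 97.8% and 87.5% of the calls in the first 3 of these, against 70.6%, 58.6% and 62.6% after quantile normalization and 93.8%, 88.8% and 82.7% after centring each array on its median.

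The labels name cardiac myocytes as the source. Markers of heart muscle cells were bright, with a mean level over 12 genes between 12.15 and 12.33 on all arrays. Markers of other heart cells were also measured, 15 of 15 fibroblast, 12 of 12 endothelial and 13 of 14 macrophage and myeloid markers passing the filter on low values. In such a mixture, fewer cells of a type and less RNA per cell cannot be told apart. After TAC the fibroblast list stood at 9.35 to 10.09 in wild-type TAC against 8.80 to 8.91 in wild-type sham and at 9.73 to 10.38 in G4D TAC against 8.86 to 9.54 in G4D sham. The macrophage list stood at 7.57 to 8.50 against 7.18 to 7.28 in wild type and at 7.65 to 8.24 against 6.93 to 7.39 in G4D. In wild type 9 of 15 fibroblast markers rose and 1 fell, and 11 of 13 macrophage markers rose, against 5 and 0 rises with the values as deposited. In G4D 10 fibroblast markers rose and 1 fell, and 12 macrophage markers rose. Of the 12 endothelial markers 2 rose in wild type and 0 in G4D (median changes 0.09 and 0.08), or 0 and 3 with the values as deposited. Of the 12 heart muscle markers 3 fell in G4D after TAC, or 0 with the values as deposited and 0 with median centring, and 0 fell in wild type. Over all tested genes 5.19% rose and 2.16% fell in wild type, and 13.2% rose and 9.32% fell in G4D. Between the genotypes after TAC, 4 of 15 fibroblast markers were higher in G4D and 0 lower, against 2.1% and 1.26% of all tested genes. Of the 13 macrophage markers 0 were called there, and their median difference was -0.12, or 0.04 with the values as deposited. Of 10 smooth muscle and pericyte markers 2 were higher, and of the 12 heart muscle markers 1 was lower. Of the 12 endothelial markers 0 were called, with a median difference of -0.10, or 0.08 with the values as deposited.

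**Figure D1:**
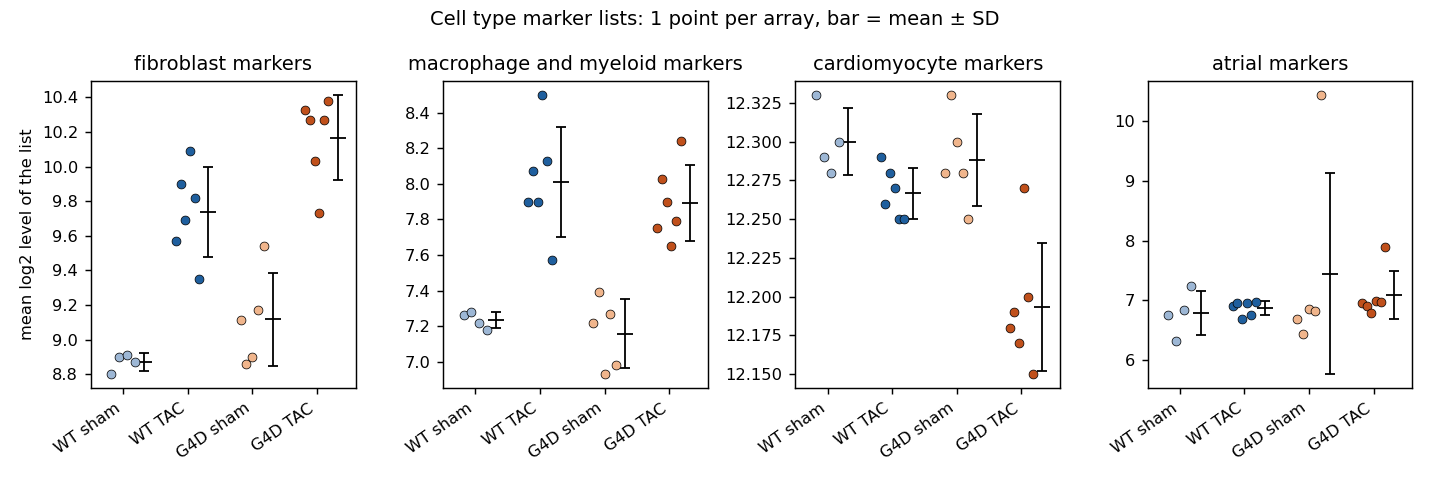
Mean log2 level of 4 lists of cell type markers on each of the 21 arrays (points) with the group mean and SD (bars); the vertical scales differ between panels and do not start at 0. The fibroblast and macrophage lists lie higher after TAC in both genotypes, the heart muscle list stays between 12.15 and 12.33, and the atrial list is high on sample 5 of G4D sham alone (10.44).

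After TAC some of the IGF genes rose, some fell and most were not called. In wild-type hearts Igf1 and Igfbp7 rose and no member fell. In G4D hearts Igf1 and Igfbp7 rose as well, while Igf2 and Igfbp2 fell. This makes 2 of 10 members called in wild type, where 7.35% of all tested genes were called (5.19% higher, 2.16% lower), and 4 of 10 in G4D, where 22.5% were (13.2% higher, 9.32% lower). With the values as deposited 0 members were called in wild type, and 3 were called higher and 0 lower in G4D. The median change of the 10 members was -0.04 in wild type and 0.11 in G4D, beside -0.02 over all tested genes in both.

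**Figure D2:**
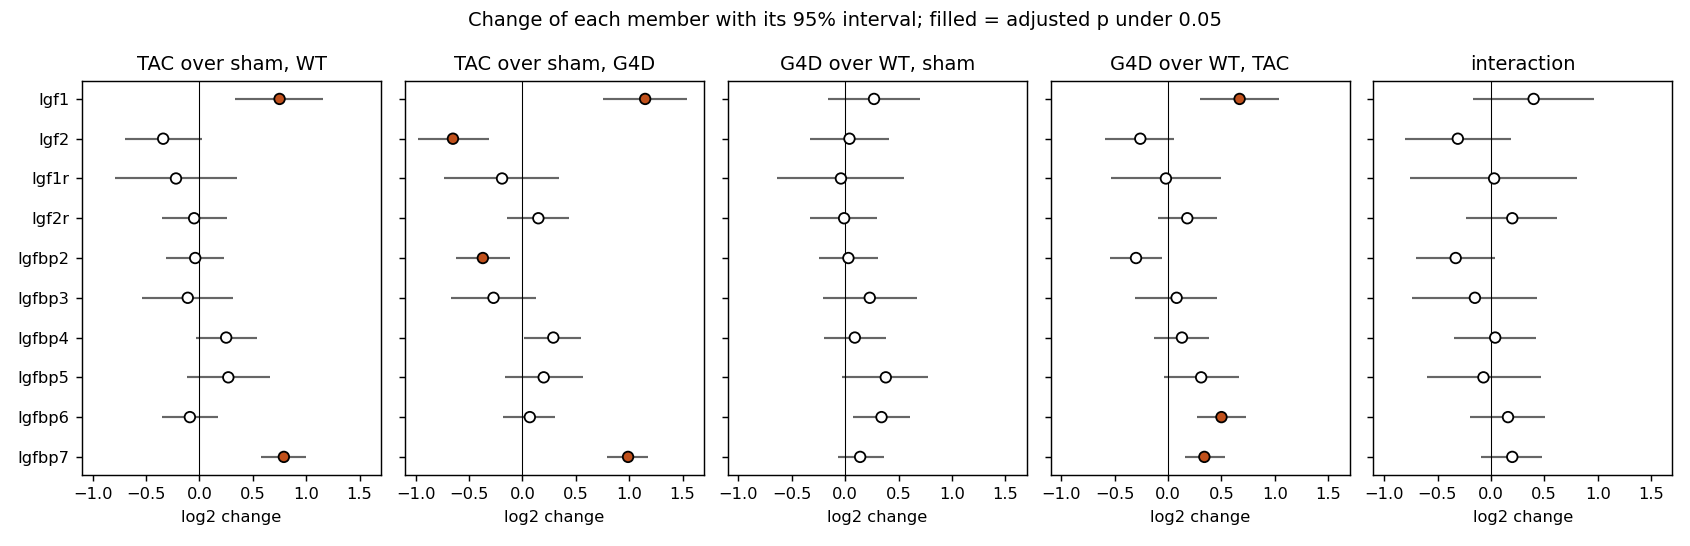
Log2 change of each of the 10 IGF genes on its brightest probe set (points) with its 95% interval (lines) in 5 comparisons; filled points have an adjusted p under 0.05. Igf1 and Igfbp7 stand to the right of 0 after TAC in both genotypes, Igf2 and Igfbp2 to the left of 0 after TAC in G4D, and no point is filled for sham hearts or for the interaction.

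Igf1, the ligand, rose in both genotypes and was highest in G4D TAC. Its level was 6.56, 6.76, 7.20 and 6.61 in the 4 wild-type sham arrays and 7.26, 6.98, 7.13, 6.44 and 7.45 in the 5 G4D sham arrays. After TAC it ran from 6.97 to 8.00 with a median of 7.53 in wild type, and from 7.71 to 8.52 with a median of 8.25 in G4D. In G4D every TAC array lay above every sham array, and in wild type the groups overlapped through 1 sham array at 7.20 and 1 TAC array at 6.97. Igf1 rose 1.68-fold in wild type, by 0.75 ± 0.20 (adjusted p = 0.0244), and 2.22-fold in G4D, by 1.15 ± 0.19 (adjusted p = 0.00015). The difference between these changes was 0.40 ± 0.27 (adjusted p = 0.741; 95% interval -0.17 to 0.97). Groups that do not overlap were seen for 10.1% of all tested genes in G4D.

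The 4 Igf1 probe sets read the same way. In a fit of all 45037 probe sets their TAC changes ran from 0.68 to 1.15 in wild type and from 1.15 to 1.76 in G4D. All 4 were called in G4D, where 8.97% of probe sets were, and 0 in wild type, where 2.02% were; there all 4 had an unadjusted limma p under 0.05, as did 11.9% of probe sets. The wild-type call on the brightest probe set was lost with the values as deposited (0.68; adjusted p = 0.441), although relative to the median of all genes the change was 0.77 there and 0.77 with quantile normalization. Leaving out sample 1, 2 or 4 of wild-type sham or sample 1 or 4 of wild-type TAC also ended it, with changes of 0.65 to 0.74. The call in G4D held under each of these settings, and also without G4D sham sample 5. The fibroblast and macrophage lists moved with Igf1 after TAC, as given above, and their part in its rise was not tested.

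Igfbp7 rose in both genotypes and had the smallest within-group SD of the 10 genes, 0.15 beside a median of 0.21 over all tested genes. Its level was 10.27, 10.34, 10.20 and 10.25 in wild-type sham and 10.42, 10.41, 10.39, 10.57 and 10.25 in G4D sham. It ran from 10.82 to 11.35 (median 11.04) in wild-type TAC and from 11.22 to 11.53 (median 11.42) in G4D TAC. Every TAC array lay above every sham array of either genotype. Within 1 genotype, TAC and sham groups did not overlap for 10.5% of all tested genes in wild type and 10.1% in G4D. The share over both genotypes together was not taken. Igfbp7 rose by 0.79 ± 0.10 in wild type (adjusted p = 7.25e-05), 1.73-fold, and by 0.99 ± 0.09 in G4D (adjusted p = 5.10e-07), 1.98-fold. The difference between the changes was 0.20 ± 0.14 (adjusted p = 0.746; 95% interval -0.09 to 0.48).

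The next brightest Igfbp7 probe set rose as well in the fit of all probe sets, by 1.04 ± 0.20 in wild type (adjusted p = 0.00849), and in the G4D hearts by 1.10 ± 0.19 (adjusted p = 0.000761). The dimmest, with a mean of 4.60 near the filter level of 4.35, gave -0.16 ± 0.27 and -0.22 ± 0.25. With the values as deposited the wild-type rise was 0.68 (adjusted p = 0.255) or 0.78 relative to the median of all genes. With the mean over its probe sets the rises were 0.56 and 0.62, both called. No array left out ended either TAC call. An RNA quality measure, the actin control signal at the 3′ end minus that at the 5′ end, also moved with TAC. It was 0.44 to 0.67 in wild-type sham and 0.11 to 0.41 in wild-type TAC, and 0.38 to 0.63 and 0.19 to 0.38 in G4D. The same measure from the Gapdh controls overlapped between sham and TAC in both genotypes. The part of RNA quality in the TAC changes was not tested.

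**Figure D3:**
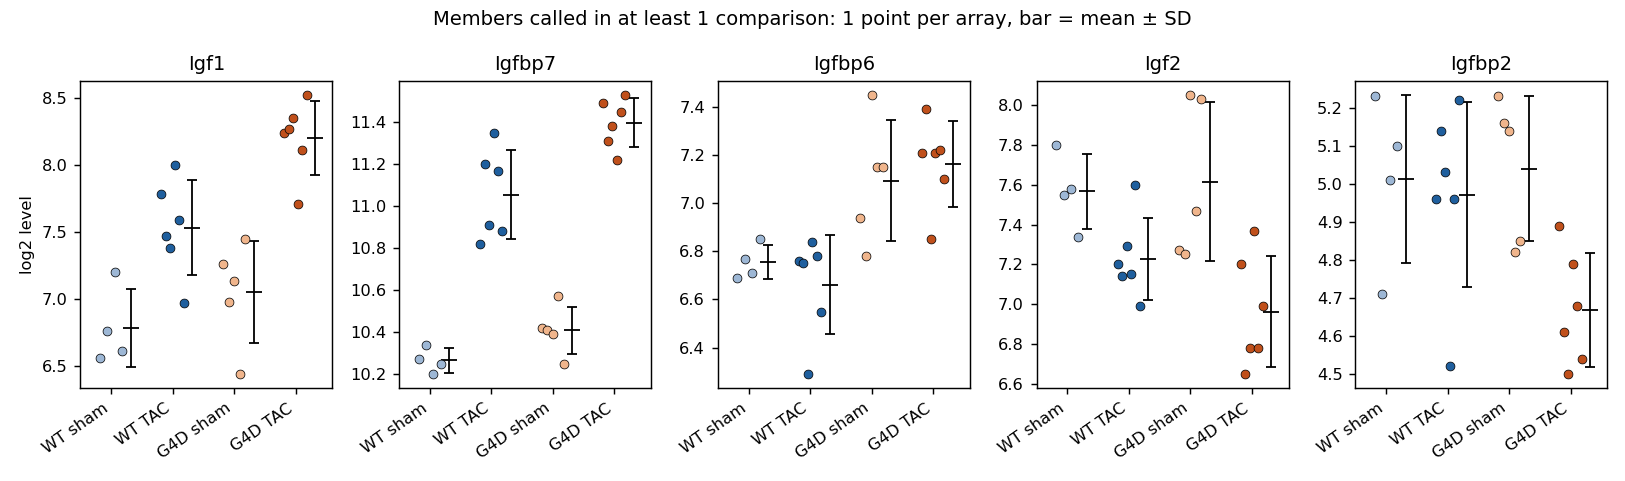
Log2 level of the 5 IGF genes called in at least 1 comparison, on each of the 21 arrays (points), with the group mean and SD (bars); the vertical scales differ between panels and do not start at 0. Igf1 and Igfbp7 are higher in the TAC groups and highest in G4D TAC (means 8.20 and 11.40), and Igf2 and Igfbp2 are lowest in G4D TAC (6.96 and 4.67). Igfbp6 has higher means in both G4D groups (7.09 and 7.16), and the genotype difference was called only after TAC.

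Igf2, the fetal ligand, fell after TAC in G4D hearts by the test. Its level was 7.80, 7.55, 7.58 and 7.34 in wild-type sham and 7.27, 7.25, 8.05, 7.47 and 8.03 in G4D sham. After TAC it ran from 6.99 to 7.60 (median 7.17) in wild type and from 6.65 to 7.37 (median 6.89) in G4D. The groups overlapped in both genotypes. In G4D sham 2 of the 5 arrays, samples 3 and 5 at 8.05 and 8.03, lay well above the others. Sample 3 read 7.01 as deposited, on the array with the lowest deposited median (4.31). Sample 5, at 8.17 as deposited, was the array with high atrial markers. Of 6 listed epicardial and mesothelial markers 2 were tested. Their mean was 6.60 and 6.70 on samples 3 and 5, beside 5.22 to 6.32 on the other arrays. After TAC 1 of these 2 markers fell in G4D (median change -0.67) and 0 in wild type (0.11). Their part in the Igf2 change was not tested. The TAC change of Igf2 was -0.65 ± 0.16 in G4D (adjusted p = 0.00609), a 1.57-fold fall, and -0.34 ± 0.17 in wild type (adjusted p = 0.278). The difference between the changes was not called, at -0.31 ± 0.24 (adjusted p = 0.787).

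The fall of Igf2 in G4D depended on the normalization. It was -0.24 with the values as deposited (adjusted p = 0.454) and -0.45 with arrays centred on their medians (adjusted p = 0.103), or -0.55 relative to the median of all genes in both. No array left out ended its call. The dimmer Igf2 probe set, whose group means of 2.72 to 3.31 lay below the filter level, gave 0.17 in wild type and -0.28 in G4D, neither called.

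Igfbp2, a binding protein of the fetal and metabolic circulation, was dim here, at the 13.5th percentile of tested genes. It read 5.23, 4.71, 5.01 and 5.10 in wild-type sham, 5.23, 5.16, 5.14, 4.82 and 4.85 in G4D sham, and 4.96, 5.14, 5.03, 4.52, 4.96 and 5.22 in wild-type TAC. In G4D TAC it ran from 4.50 to 4.89 (median 4.65). In G4D the groups overlapped only where the 2 lowest sham arrays met the highest TAC array. The TAC change was -0.37 ± 0.12 in G4D (adjusted p = 0.0304), a 1.3-fold fall, and -0.04 ± 0.13 in wild type (adjusted p = 0.899). The test of the difference gave -0.33 ± 0.18 (adjusted p = 0.66). It has a single probe set, whose p over all probe sets was not past the threshold (adjusted p = 0.0733). The call ended with the values as deposited (-0.15), with median centring (-0.35, adjusted p = 0.0627) and without sample 1, 2 or 3 of G4D sham or sample 2, 3 or 6 of G4D TAC (-0.36 to -0.32).

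The next comparison set hearts labelled G4D against wild-type hearts, both after TAC; Gata4 itself was not called lower there, at 0.17 as given above. Igf1, Igfbp6 and Igfbp7 were higher in G4D TAC, 3 of 10 members where 3.36% of all tested genes were called (2.1% higher, 1.26% lower), and no member was called lower. The median difference of the 10 was 0.15, beside -0.01 over all tested genes.

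Igfbp6, which prefers IGF2 over IGF1, was higher in G4D than in wild-type hearts after TAC and was not called for TAC in either genotype. It read 6.69, 6.77, 6.71 and 6.85 in wild-type sham and 6.94, 6.78, 7.45, 7.15 and 7.15 in G4D sham. After TAC it ran from 6.29 to 6.84 (median 6.75) in wild type and from 6.85 to 7.39 (median 7.21) in G4D. After TAC every G4D array lay above every wild-type array, though the nearest stood at 6.85 and 6.84, a separation seen for 2.59% of tested genes. In sham the ranges overlapped through 1 G4D array at 6.78, and the highest G4D array, sample 3 at 7.45, read 6.44 as deposited. After TAC G4D exceeded wild type 1.41-fold, by 0.50 ± 0.11 (adjusted p = 0.0138), and in sham the difference was 0.34 ± 0.13 (adjusted p = 0.476). The TAC changes were -0.09 ± 0.12 in wild type (adjusted p = 0.757), and in the G4D hearts 0.07 ± 0.12 (adjusted p = 0.722), and the interaction was 0.16 ± 0.17 (adjusted p = 0.873). Its only probe set also passed over all probe sets (adjusted p = 0.0469), where 0.853% did. No array left out ended the call (0.43 to 0.56), while the values as deposited did (0.66; adjusted p = 0.115).

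Igf1 was higher in G4D TAC than in wild-type TAC by 0.67 ± 0.18 (adjusted p = 0.039), 1.59-fold, with 5 of the 6 G4D arrays above the highest wild-type array of 8.00. All 4 probe sets pointed this way (0.64 to 0.78), each with an unadjusted limma p under 0.05, which 8.22% of probe sets reached, and none called over all probe sets. The call ended with no filter on low values, with the values as deposited (0.85; adjusted p = 0.101) and without sample 2, 3, 5 or 6 of wild-type TAC or sample 1, 2, 3, 5 or 6 of G4D TAC (0.56 to 0.69). Igfbp7 was higher by 0.34 ± 0.09 (adjusted p = 0.0359), 1.27-fold, with 4 of the 6 G4D arrays above the highest wild-type array of 11.35. Over all probe sets its brightest was not called (adjusted p = 0.106), and its dimmer ones gave 0.22 ± 0.18 and -0.19 ± 0.24, also not called. Its call ended without sample 1, 3 or 6 of wild-type TAC or sample 1, 2, 3, 5 or 6 of G4D TAC (0.29 to 0.36). It also ended with no filter, with the values as deposited (0.45; adjusted p = 0.704) or centred on medians (0.33; adjusted p = 0.475), with the mean over probe sets (0.12; adjusted p = 0.823), and with only the groups compared in the fit. The fibroblast list stood at 9.35 to 10.09 in wild-type TAC and 9.73 to 10.38 in G4D TAC, and its part in these differences was not tested. The actin measure, 0.11 to 0.41 and 0.19 to 0.38, overlapped between these groups.

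In sham hearts 0 of 10 members were called between the genotypes, where 0.0527% of all tested genes were. At an unadjusted limma p under 0.05 the count was 1, Igfbp6, where 8.09% of genes reached that level. The 95% intervals ran from -0.16 to 0.70 for Igf1, from -0.33 to 0.41 for Igf2 and from -0.07 to 0.36 for Igfbp7. The interaction, which asks whether TAC acted differently in the genotypes, was called for 0 of 10 members, where 0.0151% of all tested genes were called. At an unadjusted limma p under 0.05 the count was 0, where 8.36% of genes reached that level. The larger TAC changes of Igf1, Igf2 and Igfbp2 in G4D are therefore not shown to differ from those in wild type.

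The receptors were called in no comparison. Igf1r, which carries the IGF1 signal into the cell, had the widest scatter of the 10 genes on its brightest probe set, a within-group SD of 0.46 at the 94.5th percentile of tested genes. It ran from 6.63 to 7.94 in wild-type sham, 6.61 to 7.85 in wild-type TAC, 6.81 to 7.77 in G4D sham and 6.51 to 7.64 in G4D TAC. On it the TAC change was -0.22 ± 0.28 in wild type and -0.19 ± 0.26 in G4D (adjusted p = 0.729 and 0.638), and G4D differed from wild type after TAC by -0.02 ± 0.25.

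The other Igf1r probe sets did not read like the brightest. Probe set 2, counted from the brightest, ran from 6.53 to 7.24 in wild-type TAC and from 7.14 to 7.47 in G4D TAC. Probe set 3 ran from 6.27 to 7.07 and from 7.07 to 7.44. In the fit of all probe sets their differences, G4D over wild type after TAC, were 0.52 ± 0.13 (adjusted p = 0.079) and 0.51 ± 0.13 (adjusted p = 0.0804), neither past the threshold. In that fit the brightest probe sets of Igf1 (adjusted p = 0.117) and Igfbp7 (adjusted p = 0.106) were not past it either. Probe set 4 of Igf1r stood at 0.39 ± 0.17 and the dimmest at 0.13 ± 0.12. The TAC changes of probe sets 2 and 3 were 0.38 ± 0.14 and 0.37 ± 0.14 in G4D, and 0.04 ± 0.15 and 0.20 ± 0.15 in wild type. Of the 5 probe sets 4 thus lay above 0 for G4D over wild type after TAC, and which of them follows the full-length transcript is not known here.

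**Figure D4:**
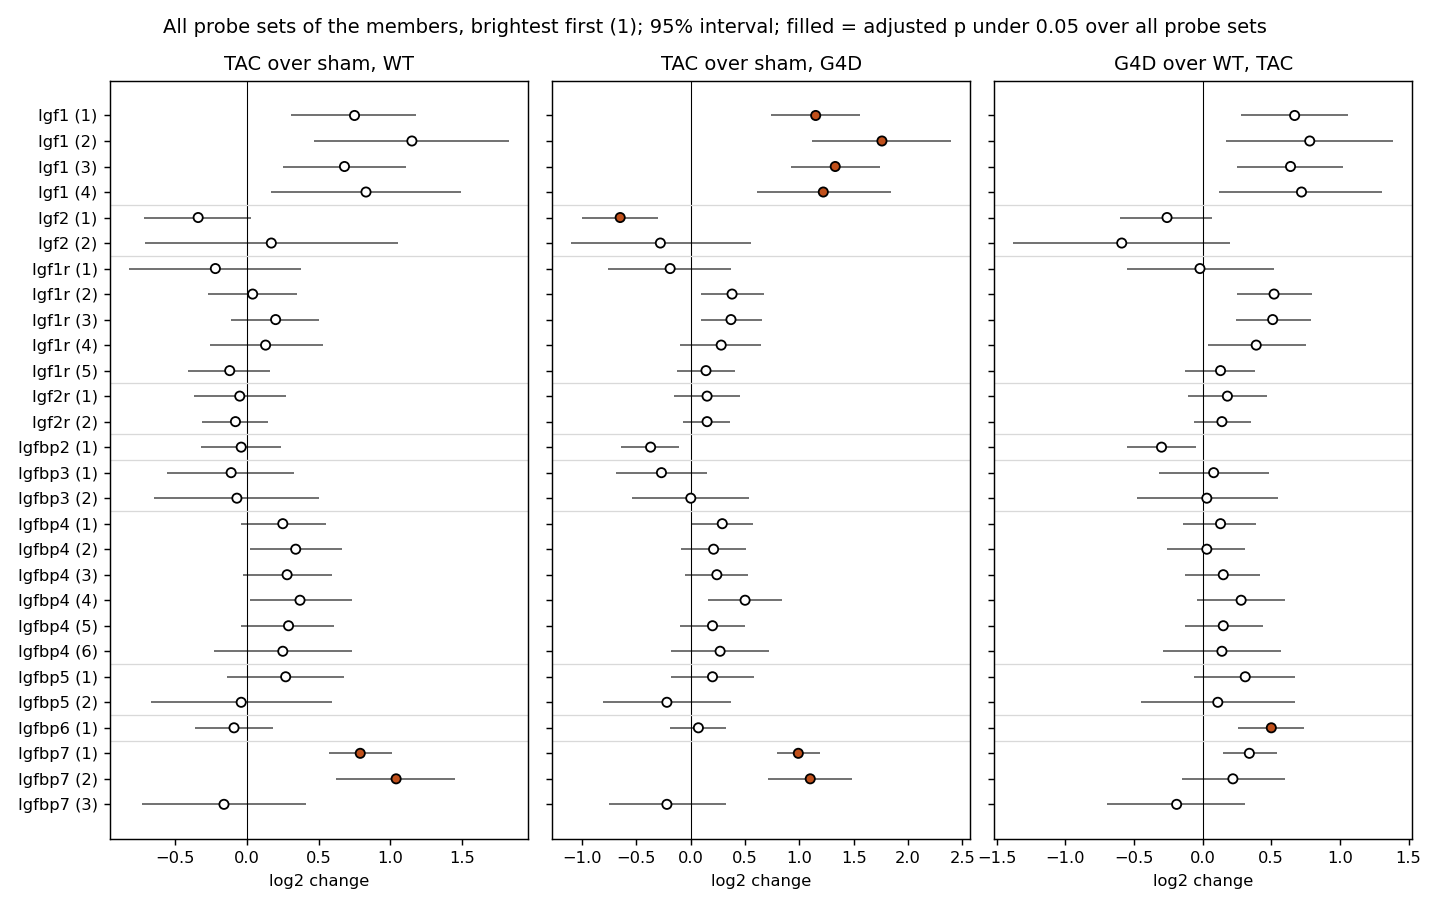
Log2 change with its 95% interval for all 28 probe sets of the 10 IGF genes, numbered from the brightest (1) within each gene, in 3 comparisons; filled points have an adjusted p under 0.05 over all 45037 probe sets, and the horizontal scales differ between panels. The 4 Igf1 probe sets lie together, probe sets 1 and 2 of Igfbp7 lie apart from probe set 3 after TAC, and the brightest of Igf1r lies left of the other 4 in the comparison of the genotypes after TAC.

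Igf2r, which removes IGF2 and sorts lysosomal enzymes, stayed within 8.51 and 9.30 on its brighter probe set in all 21 arrays. The TAC change was -0.05 ± 0.15 in wild type (95% interval -0.35 to 0.26) and 0.15 ± 0.14 in G4D (95% interval -0.14 to 0.44). After TAC the genotypes differed by 0.18 ± 0.13 (adjusted p = 0.663). Its other probe set gave changes of -0.08 and 0.15 after TAC.

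Of the remaining binding proteins, Igfbp4, a soluble inhibitor that the protease PAPP-A cleaves, had values above 0 for TAC that did not pass the test. On its brightest probe set it ran from 9.28 to 9.39 in wild-type sham, 9.15 to 9.77 in wild-type TAC, 9.14 to 9.77 in G4D sham and 9.27 to 9.98 in G4D TAC. The TAC value was 0.29 ± 0.13 in G4D (adjusted p = 0.112) and 0.25 ± 0.14 in wild type (adjusted p = 0.32). All 6 of its probe sets were above 0 in both, from 0.20 to 0.50 in G4D and from 0.25 to 0.37 in wild type. The G4D change was called with the values as deposited (0.72; adjusted p = 0.0312), with median centring (0.51; adjusted p = 0.0281) and without G4D sham sample 5 (0.37; adjusted p = 0.0417) or G4D TAC sample 4 (0.38; adjusted p = 0.0208). Some of the 6 are of types that the array maker marks as able to bind several transcripts, and they share a gene, so they are not independent readings.

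Igfbp5, a matrix-bound binding protein that lies next to Igfbp2 in the genome, ran from 8.13 to 8.38 in wild-type sham, 8.35 to 8.72 in wild-type TAC, 7.97 to 9.11 in G4D sham and 8.37 to 9.41 in G4D TAC. The genotypes were apart by 0.38 ± 0.19 among sham arrays (adjusted p = 0.659) and by 0.31 ± 0.17 among TAC arrays (adjusted p = 0.466), G4D above, with neither called. Its TAC values were 0.27 ± 0.19 in wild type and 0.20 ± 0.18 in G4D, neither called (adjusted p = 0.472 and 0.446). The dimmer Igfbp5 probe set lay below 0 for TAC, at -0.04 ± 0.30 in wild type and -0.22 ± 0.28 in G4D, also not called. Its neighbour Igfbp2 gave -0.04 and -0.37, of which the latter was called. Igfbp3, the main carrier of IGFs in blood, ran from 5.75 to 7.27 over the 21 arrays, and its TAC changes were -0.11 ± 0.20 and -0.27 ± 0.19 (adjusted p = 0.822 and 0.347). The dimmer Igfbp3 probe set gave -0.07 ± 0.27 and -0.00 ± 0.26.

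**Figure D5:**
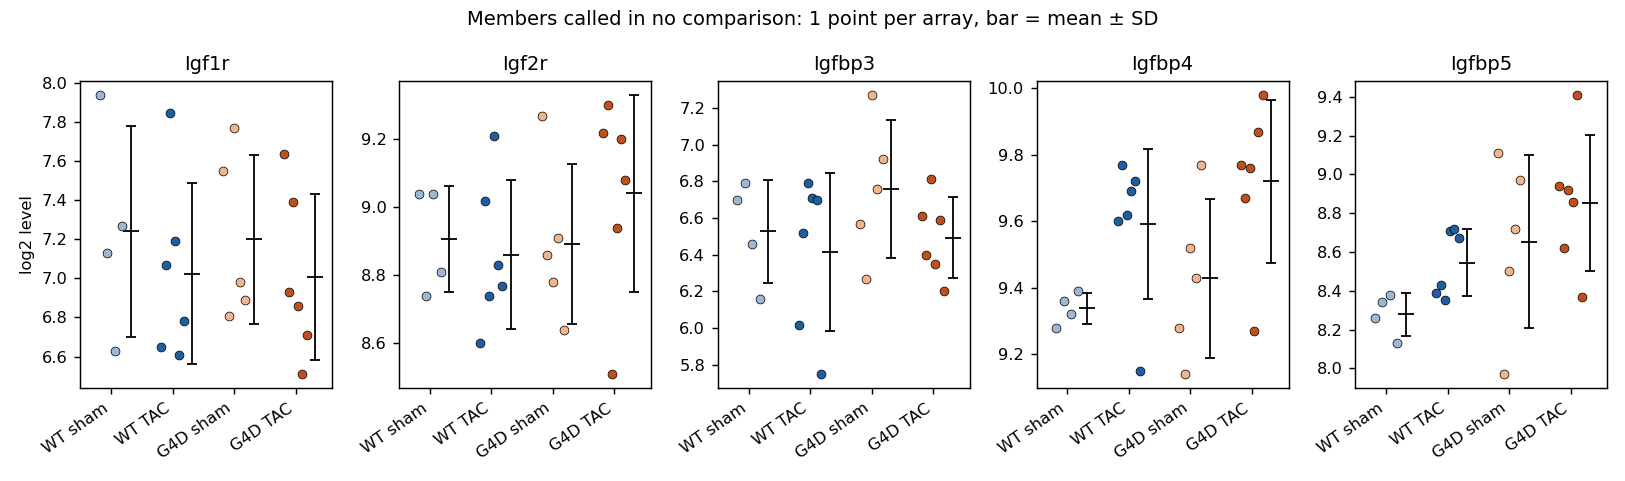
Log2 level of the 5 IGF genes called in no comparison, on the brightest probe set of each, on each of the 21 arrays (points) with the group mean and SD (bars); the vertical scales differ between panels and do not start at 0. The 4 groups overlap in every panel, and Igf1r scatters most within its groups (SD 0.43 to 0.54).

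Ordered by group mean, Igf1, Igfbp4 and Igfbp7 ran in the same sequence: G4D TAC, wild-type TAC, G4D sham and wild-type sham. For Igfbp7 the step from wild-type TAC down to G4D sham, 0.65, was free of overlap. Every other step between neighbouring groups, for all 10 genes, was between groups whose arrays overlapped. Igf2 and Igfbp2 ran the other way in part, with G4D sham and wild-type sham 0.04 and 0.03 apart at the top and G4D TAC at the bottom. By the likeness of the 3 group differences from wild-type sham, over 4 groups, the tested genes nearest to Igf1 were Rrp12 and Ahnak2 (root mean square difference 0.0346 and 0.0445). Those nearest to Igfbp7 were Ttyh2 and Dap (0.0358 and 0.0546), and to Igfbp6 Slc2a1 and Mpdz (0.0477 and 0.0657). For Igf2 they were Slc22a5 and Zfp386 (0.0263 and 0.0279), and for Igfbp2 Dbx1 and Ifngr2 (0.0136 and 0.0149).

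Growth hormone drives Igf1 expression in liver and other tissues through JAK2 and STAT5. Of the 7 tested genes of that axis, 3 fell and 1 rose after TAC in wild type, and 4 fell and 0 rose in G4D. Of all tested genes 7.35% were called in wild type and 22.5% in G4D. The growth hormone receptor gene Ghr fell by 0.32 ± 0.07 in wild type (adjusted p = 0.00704), and in the G4D hearts by 0.45 ± 0.07 (adjusted p = 6.79e-05). Stat5a and Stat5b, its transcription factors, stood at -0.42 and -0.30 in wild type and -0.53 and -0.44 in G4D, all called. Socs2, a feedback inhibitor of the receptor, rose by 0.41 ± 0.12 in wild type (adjusted p = 0.0439), and its relative Cish fell in G4D by 0.56 ± 0.14 (adjusted p = 0.00576). Cish was also lower in G4D than in wild type after TAC, at -0.66 ± 0.13 (adjusted p = 0.00738). The list's median was 0.12 in wild type, above 0 despite its falls, and -0.44 in G4D. These calls were lost with the values as deposited and with median centring, while Ghr relative to the median of all genes was -0.33 in both settings and both genotypes. The list's median in G4D was -0.03 with the values as deposited, where 1 gene was called higher and 0 lower. With median centring it was -0.23, with 0 called.

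A list drawn up around IGF availability held 12 tested genes, not all of them known to act on the ligands. Of these 0 were called in wild type after TAC, and 1 rose and 4 fell in G4D, where 13.2% of all tested genes rose and 9.32% fell. Prss23, a secreted serine protease, rose by 1.16 ± 0.28 (adjusted p = 0.00417), also called with the values as deposited and with median centring. Whether it acts on IGFs or their binding proteins was not tested. The falls were of Htra3 (-0.55 ± 0.18) and Htra1 (-0.52 ± 0.12), secreted serine proteases, of Igf2bp3 (-0.49 ± 0.13), which binds Igf2 mRNA, and of Stc2 (-0.44 ± 0.11), an inhibitor of PAPP-A. None of these falls was called under either other scaling, and without G4D sham sample 5 Htra3 was not called (adjusted p = 0.0794). The list's median in G4D was -0.13, or 0.13 with the values as deposited. No gene of the list was called between the genotypes after TAC.

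Downstream of the receptors, 1 of 22 tested genes rose and 3 fell in wild type after TAC, and 3 rose and 6 fell in G4D. The shares over all tested genes were 5.19% and 2.16% in wild type and 13.2% and 9.32% in G4D, so the rises in G4D were near the background. Grb10, an adaptor that restrains insulin and IGF1 receptor signalling, rose by 0.37 ± 0.09 in wild type (adjusted p = 0.0119), and in the G4D hearts by 0.51 ± 0.08 (adjusted p = 0.000149). Shc1, an adaptor toward the MAP kinase pathway, rose in G4D by 0.38 ± 0.09 (adjusted p = 0.00284), and Pik3cb, a PI3 kinase catalytic subunit, by 0.48 ± 0.11 (adjusted p = 0.00354). In wild type the falls were of Akt2 (-0.50), the adaptor Irs1 (-0.48) and the transcription factor gene Foxo4 (-0.40). In G4D the 4 largest falls were of Foxo3 (-0.63), Akt2 (-0.60), the PI3 kinase regulatory subunit Pik3r1 (-0.55) and the adaptor Gab1 (-0.53). Akt1, a kinase downstream of PI3 kinase, was lower in G4D TAC than in wild-type TAC by -0.48 ± 0.08 (adjusted p = 0.00234), the only gene of the list called there. This call was lost with the values as deposited (-0.30, adjusted p = 0.927) and with median centring (-0.42, adjusted p = 0.258). In sham hearts the Akt1 difference was -0.24 ± 0.10 (adjusted p = 0.504), not called. With the values as deposited and with median centring the 3 rises in G4D were called, while the rise of Grb10 in wild type and the falls of this list were not. The list's median in G4D was -0.14, or 0.26 and 0.06 under those scalings. For the lists beyond the 10 members, these scalings and the array left out were chosen after seeing the data.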

How the data were processed

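RNA of 21 mouse heart samples was measured on 1 expression array each. The deposited log2 values were summarised per probe set by the authors with PLIER, per the submitters' processing notes; its version, the background correction and any normalization are not given in the sources used here, and log2 was read off the range of the values (-13.5 to 15.1). Of 45101 probe sets, 64 controls were left out and the other 45037 were quantile normalized between arrays. Symbols came from the platform annotation: 34945 probe sets had 1 symbol, 932 several and 9160 none. Probe sets with 1 symbol and a mean at or above the 40th percentile (4.35) were kept, and the brightest stood for its gene. Group means of all 21 arrays were fitted in 1 model in limma 3.58.1 under R 4.3.3 with no covariate, and moderated statistics had 20.7 degrees of freedom. Tests were two-sided. All probe sets were also fitted together. The fit was tested on simulated data.

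Named were the 10 members, Gata4, called genes of 3 pathway lists (at most 4 in each direction) and the nearest patterns. The members and lists were chosen with earlier results of these data known. The array count limits the precision. All 10 members matched RefSeq. Of the lists' genes, those without a probe set of their own or below the filter level were not tested. Tested were 7 of 9 listed genes of the growth hormone axis, all 9 with a probe set. For IGF availability it was 12 of 17 (15 with a probe set), and for receptor signalling 22 of 27 (24 with a probe set). Titles share replicate numbers, but of 28 same-numbered pairs 9 had deviations that correlated above 0.1 (range -0.36 to 0.42), so the numbers were not taken as pairs. No columns were identical. Alternatives tried were the filter, the scaling, a floor at 0, the mean over probe sets, another variance model, the groups in the fit, a replicate block and each array left out.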

Additional observations from a re-analysis of the deposited data

Results flagged for a closer look

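Over the 4 sample groups of each of the 28 probe sets, 112 in all, 4 held an array set far from the others; chance flags about 1 in 20 groups. For Igfbp4, on its brightest probe set, sample 6 of wild-type TAC read 9.15 with the next at 9.60. On dimmer probe sets, Igf1 read 7.20 in sample 4 of G4D TAC (next 8.08) and, on another, 6.47 in sample 4 of wild-type TAC (next 5.55). Igf2 read 2.33 in sample 6 of wild-type TAC on its dimmer probe set (next 3.25), below the filter level of 4.35. No member's TAC change was called as different between the genotypes.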

How the results depend on the processing

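The 9 called changes of members kept their direction under every alternative run in which the gene was tested, and 0 values reversed. Igfbp2 was too dim to be tested with the filter at the 60th percentile. Of the 10 members, 2 were called for TAC in wild type, against 0 with the values as deposited, 1 with the replicate block and 1 to 2 with an array left out. For TAC in G4D 4 were called, 2 higher and 2 lower. Both with the values as deposited and with median centring it was 3 higher and 0 lower, where Igf2 and Igfbp2 were lost and Igfbp4 was gained. With an array left out 3 to 5 were called. For G4D over wild type after TAC 3 were called, against 1 with no filter, 0 with the values as deposited, 2 with median centring, 1 with the replicate block and 1 to 4 with an array left out (4 without wild-type TAC sample 4, where Igfbp2 was called at -0.39). Igfbp7 was also lost there with the mean over probe sets and with only the groups compared. With the replicate block the adjusted p of Igf1 was 0.0708 for TAC in wild type and 0.0823 between the genotypes after TAC, and that of Igfbp7 there was 0.0967; it changed no other call of a member. In sham and for the interaction 0 members were called under every alternative. Among values not called, 71 of 1216 changed sign and stayed uncalled. Over all genes the count of calls for TAC in wild type, 976, was 95 as deposited, 388 with median centring, 488 with the replicate block and 562 without wild-type sham sample 1. After TAC between the genotypes, 446 became 64, 185 and 274 under the same 3 settings and 247 without G4D TAC sample 1. In sham, 7 became 3 as deposited, 4 with median centring, 3 with the replicate block, 15 with the filter at the 60th percentile, 12 with the trend and robust variance model, and 1 to 27 with an array left out. For the interaction, 2 became 6, 10, 1, 20 and 6 in that order, 1 with no filter, 0 with the mean over probe sets, and 1 to 29 with an array left out. Dim probe sets, such as those of Igf2 and Igfbp7 near or below 4.35, give imprecise sizes.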
